A study of Homo sapiens with 4 samples.

Results

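The interferon response and antigen presentation genes examined here are 42 genes chosen by name and function: antiviral effectors, the ISG15 conjugation system, nucleic acid sensors, STAT and IRF transcription factors, and the genes that prepare peptides for class I molecules. Of these, 41 had a probe set assigned to a single gene, out of 18417 such genes on the array, and each gene is represented by its brightest probe set; STAT2 is not analysed here. They were measured in MiaPaCa2, a human pancreatic carcinoma cell line, on 1-colour Human Gene 1.0 ST arrays. Vehicle alone (2 arrays) or LY101-4B at 50 µM (2 arrays) was given for 24 h; the design text describes the replicates as biological, and the title describes LY101-4B as an inhibitor of E2F, a cell-cycle transcription factor family. The treatment text attached to the same samples gives another code and dose, which was not followed because the titles, agent labels and design all name LY101-4B at 50 µM. All values are from 1 line, and vehicle is the only control.

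Type I and type III interferons are secreted when a cell's sensors meet viral or misplaced nucleic acid. They act through receptors, JAK1 and TYK2, and their target genes carry the interferon-stimulated response element (ISRE), which a complex containing STAT2 and IRF9 binds. Interferon gamma acts through JAK1 and JAK2 on genes with the gamma-activated site (GAS) and quickly induces IRF1. Many of the induced genes block viral replication, and others build the class I pathway, in which peptides are pumped into the endoplasmic reticulum by the transporter TAP1 and TAP2, trimmed by aminopeptidases and loaded onto class I molecules that contain beta-2-microglobulin. Part of these genes can also be induced without interferon, by IRF proteins or NF-kB.

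Each array gave log2 expression values with a median between 5.88 and 5.97, and arrays of a group correlated at 0.997 (vehicle) and 0.994 (LY101-4B). On a list of 7 markers for this carcinoma line, the probe sets of the keratins KRT8 and KRT18 and of VIM read between 11.86 and 13.00. Those of the keratins KRT19 and KRT7 read lower, between 9.06 and 9.28 and between 5.81 and 6.10. Those of EPCAM and CDH1, epithelial surface genes, read between 3.77 and 4.63. No detection calls were used, so low values cannot be called absent. Summed over 8 leucocyte markers the values were 43.7 and 43.4 with vehicle and 44.1 and 43.9 with LY101-4B, and 0 of the 8 passed the test. Their levels differed widely. PTPRC, which encodes CD45, read between 3.36 and 3.56, but NKG7 read between 6.38 and 6.66 and CD68 between 7.93 and 8.21. Of the other marker lists, endothelium and pancreatic acinar cells had 0 calls, whereas the fibroblast collagen gene COL1A2 was higher and KRT8 and KRT18 were lower; their part in the results was not tested.

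LY101-4B raised a minority of the genes. By limma at an adjusted p under 0.05, 10 of the 41 were higher with LY101-4B (24.4%), whereas 8.88% of all 18417 genes were higher. A single member, STAT3, was lower (2.44%, against 10.7% of all genes), and 30 did not pass. These genes, and the pathway lists used below, were chosen with earlier results of these data known. Their shares therefore describe the lists and are not an independent test. The genes that rose were IFI35, RSAD2, TAP1, IRF1, IFI16, ERAP1, OASL, IFIT3, ISG20 and B2M, by 1.30-fold to 2.41-fold. In bulk RNA, a change in more cells and a larger change per cell cannot be told apart. The groups did not overlap for 30 of the 41 genes (73.2%), and 58.0% of all genes also did not overlap. The difference was above 0 for 26 members, where 49.9% of all genes lay above 0. With each array centred on its median it was above 0 for 24 members, and the median over all genes was then -0.06. The median difference of the members was 0.08 log2 units, against 0.00 for all genes.

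**Figure D1:**
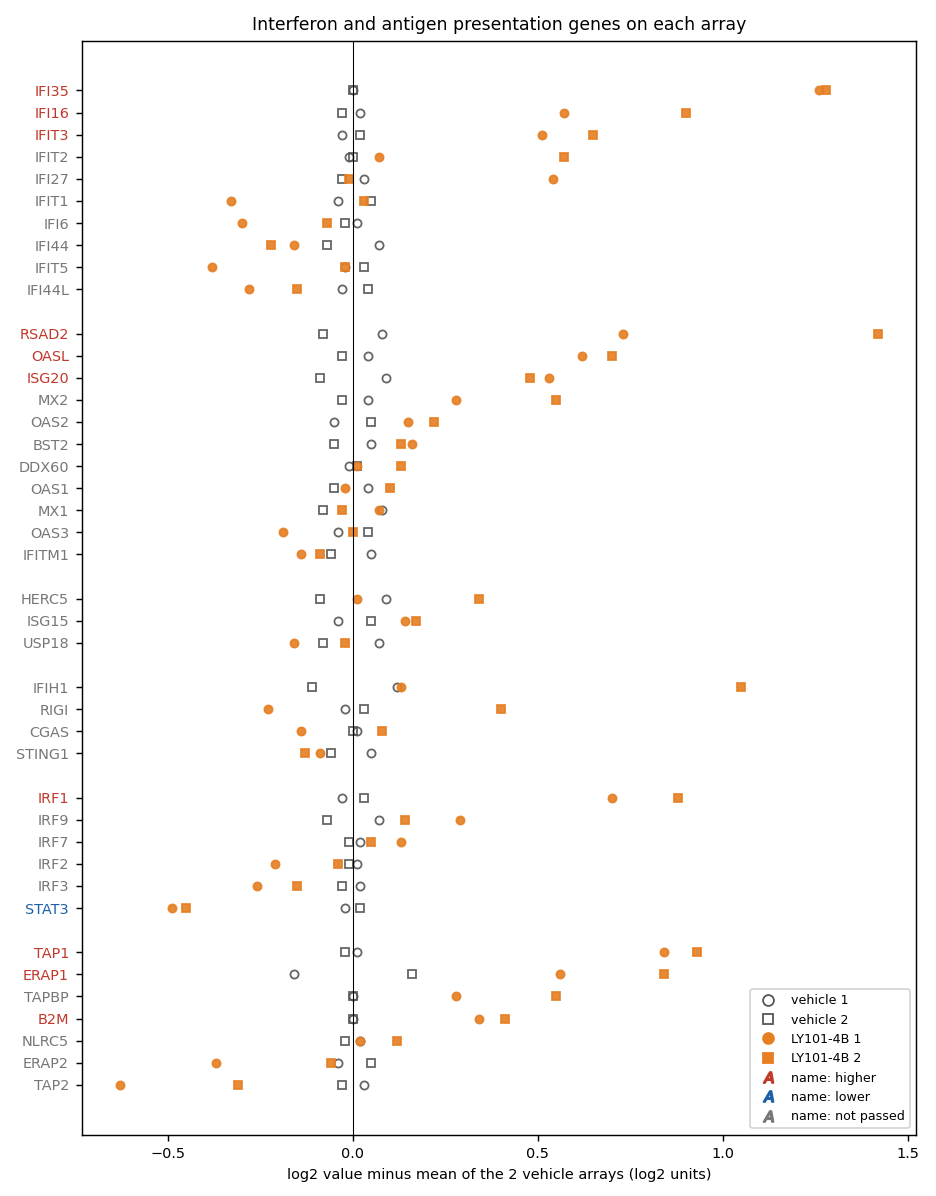
Log2 value of each of the 41 genes on each of the 4 arrays, minus the mean of the vehicle arrays (horizontal axis, log2 units), by functional group; open symbols are vehicle, filled symbols LY101-4B, circles array 1 and squares array 2, and the colour of a name gives its call (red higher, blue lower, grey not passed). Both LY101-4B arrays lie far to the right of vehicle for IFI35 and TAP1, whereas IFIH1 does so on LY101-4B array 2 alone.

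Which calls depended on single arrays was examined first. The rises of IFI35, IRF1 and TAP1 were called under all 12 alternatives, including the removal of any of the 4 arrays. The other 8 calls were lost under at least 1 alternative. With vehicle replicate 1 left out the members called higher were IFI35, IRF1, OASL and TAP1, and with vehicle replicate 2 left out they were ERAP1, IFI35, IRF1 and TAP1; in both cases 0 were lower. A fit to 3 arrays takes its spread from fewer samples, so a call lost there need not mean a smaller difference. Leaving out an LY101-4B array also takes the gap between the LY101-4B arrays out of the spread. A call gained that way does not show a firmer difference.

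**Figure D2:**
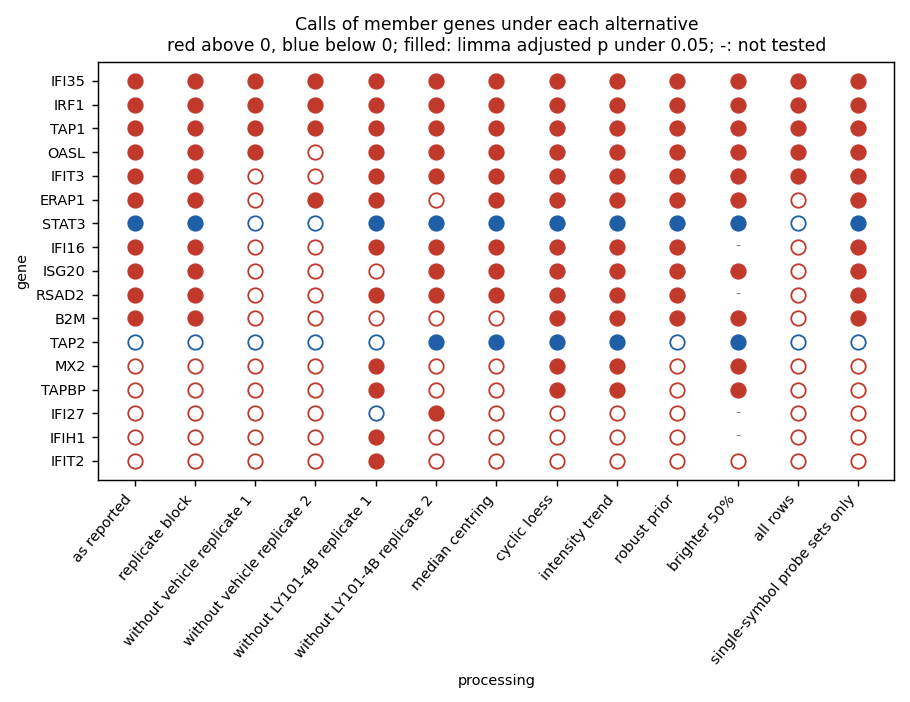
Calls of every member gene that passed at least once (vertical axis) as reported and under 12 alternatives (horizontal axis). Filled circles mark a limma adjusted p under 0.05, open circles a larger one, red a difference above 0 and blue below 0, and a dash a gene that was not tested. IFI35, IRF1 and TAP1 are filled throughout, whereas IFI27, IFIH1 and IFIT2 are filled once each.

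The IFIT and IFI families hold 10 of the genes. Of these 3 rose and 0 fell, against 8.88% and 10.7% of all genes. IFI35, which encodes an interferon-induced leucine-zipper protein, read 7.18 on both vehicle arrays and 8.44 and 8.46 on the LY101-4B arrays. It rose 2.41-fold (1.27 ± 0.08 log2 units, SE; limma adjusted p 0.00093), with the arrays of each group almost on top of each other. IFI16, a nuclear DNA-binding protein of the innate response, read 5.74 and 5.69 with vehicle and 6.29 and 6.62 with LY101-4B. The groups were well apart, and it rose 1.67-fold (0.74 ± 0.13, SE; limma adjusted p 0.014); the adjusted p was 0.0595 without vehicle replicate 1 and 0.0692 without vehicle replicate 2.

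IFIT genes encode tetratricopeptide-repeat proteins that bind viral RNA or associate with those that do. IFIT3, the partner that stabilises IFIT1, read 6.22 and 6.27 with vehicle and 6.76 and 6.90 with LY101-4B. It rose 1.49-fold (0.58 ± 0.09, SE; limma adjusted p 0.011); the adjusted p was 0.0874 without vehicle replicate 1 and 0.0672 without vehicle replicate 2. Its relatives did not pass. IFIT2 read 7.62 and 7.63 with vehicle and 7.70 and 8.20 with LY101-4B. Its difference (0.32 ± 0.17) came mostly from the second LY101-4B array and was 0.57 without LY101-4B replicate 1. IFIT1, which binds RNA ends lacking the host's cap methylation, read 8.46 and 8.55 with vehicle and 8.17 and 8.53 with LY101-4B. IFIT5 read 7.71 and 7.76 with vehicle and 7.35 and 7.71 with LY101-4B. For IFIT1 and IFIT5 the groups overlapped, the differences being -0.15 ± 0.14 and -0.20 ± 0.14; that of IFIT1 was 0.03 without LY101-4B replicate 1.

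The remaining genes of these families are classical markers of an interferon response, and none passed. IFI6 differed by -0.18 ± 0.11 log2 units, and IFI44 and IFI44L differed by -0.19 ± 0.09 and -0.22 ± 0.09. In all 3 of these genes both LY101-4B arrays lay below both vehicle arrays, but the groups also did not overlap for 58.0% of all genes. IFI27 read 6.09 and 6.03 with vehicle but 6.60 and 6.05 with LY101-4B, so the groups overlapped. Its difference of 0.27 ± 0.18 became 0.55 without LY101-4B replicate 2 and -0.01 without LY101-4B replicate 1.

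Among 11 other antiviral effectors 3 rose and 0 fell, against 8.88% and 10.7% of all genes. RSAD2 encodes viperin, a radical-SAM enzyme that makes a chain-terminating nucleotide. It read 5.34 and 5.18 with vehicle and 5.99 and 6.68 with LY101-4B, a 2.10-fold rise (1.07 ± 0.22, SE; limma adjusted p 0.0248). Both LY101-4B arrays were above vehicle, but 0.69 log2 units apart, and the adjusted p was 0.0582 without vehicle replicate 1 and 0.0872 without vehicle replicate 2. OASL, a catalytically inactive relative of the oligoadenylate synthetases that enhances RIG-I signalling, read 6.74 and 6.67 with vehicle and 7.32 and 7.40 with LY101-4B. It rose 1.57-fold (0.65 ± 0.09, SE; limma adjusted p 0.00631) and missed the threshold without vehicle replicate 2 (0.0571). ISG20, an exonuclease of single-stranded RNA, read 6.66 and 6.48 with vehicle and 7.10 and 7.05 with LY101-4B. It rose 1.42-fold (0.51 ± 0.10, SE; limma adjusted p 0.0206), and the call was lost in 3 fits that left out an array: vehicle replicate 1 (0.064), vehicle replicate 2 (0.16) and LY101-4B replicate 1 (0.0679).

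The oligoadenylate synthetases themselves, which make the second messenger that activates RNase L, did not pass. Their differences were 0.04 ± 0.09 for OAS1, 0.19 ± 0.09 for OAS2 and -0.09 ± 0.10 for OAS3 (limma adjusted p 0.811, 0.232 and 0.607). OAS1 lay below 0 under 2 alternatives. Neither dynamin-like GTPase gene passed. MX2, which acts on nuclear entry of viral genomes, read 7.59 and 7.52 with vehicle and 7.83 and 8.10 with LY101-4B (0.41 ± 0.12; adjusted p 0.0613), and its relative MX1 differed by 0.02 ± 0.10, with a sign that turned under 4 alternatives. MX2 passed with cyclic loess (limma adjusted p 0.0417), with an intensity trend (0.0309) and among the brighter 50% of probe sets (0.0215). Its difference was 0.55 without LY101-4B replicate 1 and 0.28 without LY101-4B replicate 2. The tetherin gene BST2 (0.14 ± 0.09), the helicase gene DDX60 (0.07 ± 0.09) and the membrane restriction factor gene IFITM1 (-0.11 ± 0.09) did not pass.

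ISG15, a ubiquitin-like modifier and among the most widely used readouts of interferon action, read 6.75 and 6.84 with vehicle and 6.93 and 6.96 with LY101-4B. The LY101-4B arrays were both higher, but the difference of 0.15 ± 0.09 log2 units did not pass (limma adjusted p 0.316). Its ligase gene HERC5 differed by 0.18 ± 0.14 and USP18, the protease that removes ISG15 and dampens the receptor, by -0.09 ± 0.10. Neither passed, and the groups overlapped in both.

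Of the 4 sensor genes none passed, which with so few genes lies near the 8.88% of all genes higher and 10.7% lower. The 2 RNA sensors differed between the LY101-4B arrays. IFIH1, which encodes MDA5, read 4.99 and 4.76 with vehicle and 5.00 and 5.92 with LY101-4B. The first LY101-4B array stood at the vehicle level and the second well above it. The difference was 0.59 ± 0.29 (limma adjusted p 0.236), and 1.05 without LY101-4B replicate 1. RIGI, which encodes RIG-I, read 6.94 and 6.99 with vehicle and 6.73 and 7.36 with LY101-4B. Here the LY101-4B arrays lay on either side of vehicle (0.08 ± 0.20), and the difference was -0.24 without LY101-4B replicate 2. The DNA sensor gene CGAS (-0.03 ± 0.11, or 0.08 without LY101-4B replicate 1) and its adaptor gene STING1 (-0.11 ± 0.09) did not pass.

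**Figure D3:**
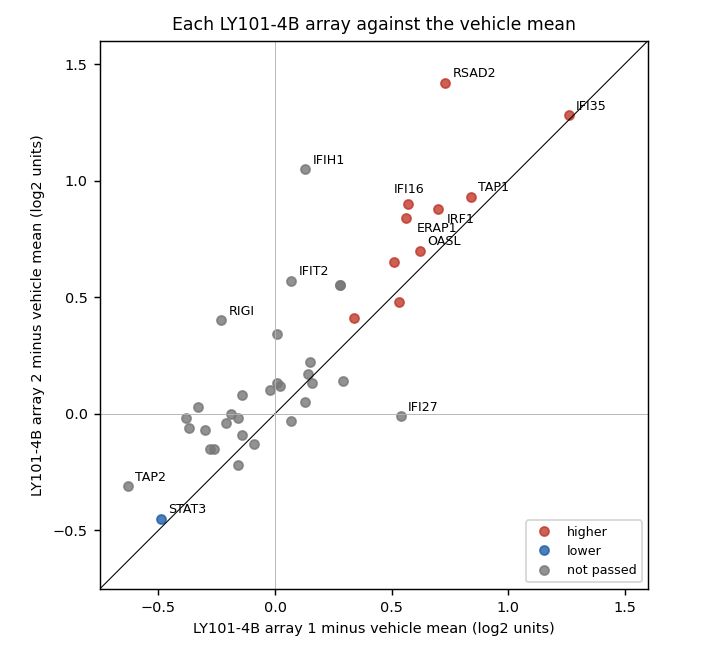
Value on LY101-4B array 1 (horizontal axis) and array 2 (vertical axis), each minus the vehicle mean in log2 units, for the 41 genes; the line marks equal values and colours give the call. IFIH1, RSAD2, RIGI and IFIT2 lie farthest above the line, IFI27 farthest below it, and IFI35 on it.

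The second LY101-4B array was the higher of the pair for 33 of the 41 genes, with a median gap of 0.13 log2 units. Among all genes it was the higher for 58.3%, with a median gap of 0.04. The LY101-4B arrays were at least 0.3 apart for 11 members, with the second array above in 10 of them, against 16.5% and 8.44% of all genes. The vehicle arrays were that far apart for 1 member, ERAP1. The gaps were 0.92 for IFIH1, 0.69 for RSAD2, 0.63 for RIGI and 0.50 for IFIT2. Without LY101-4B replicate 1 the differences of IFIH1, IFIT2, MX2 and TAPBP were 1.05, 0.57, 0.55 and 0.55. With all arrays they were 0.59, 0.32, 0.41 and 0.42. The difference of IFI27 went the other way, from 0.27 with all arrays to -0.01. The median difference of the members from the vehicle mean was 0.07 on the first LY101-4B array and 0.13 on the second. The labels give no batch that could be set against this gap, and its part in the results was not tested.

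Among the 6 transcription factor genes measured, 1 rose and 1 fell. With so few genes these counts lie near the 8.88% and 10.7% of all genes. IRF1, the factor that interferon gamma and NF-kB induce early and that activates class I pathway genes, read 6.58 and 6.64 with vehicle and 7.31 and 7.49 with LY101-4B. It rose 1.73-fold (0.79 ± 0.10 log2 units, SE; limma adjusted p 0.0051, and 0.00107 to 0.0385 over the alternatives). STAT3, which transmits signals of the interleukin-6 family, read 11.21 and 11.25 with vehicle and 10.74 and 10.78 with LY101-4B. It fell 1.38-fold (-0.47 ± 0.09, SE; limma adjusted p 0.0159), and the call was lost without vehicle replicate 1 (0.111) and without vehicle replicate 2 (0.132). The factors that respond to type I interferon did not pass. IRF9, a DNA-binding partner of STAT2, differed by 0.22 ± 0.10 and IRF7, its amplifying target, by 0.08 ± 0.09. IRF3, which sensors activate by phosphorylation, differed by -0.20 ± 0.09 and IRF2, an antagonist of IRF1, by -0.12 ± 0.10. In these 4 genes the groups did not overlap, which is also true of 58.0% of all genes.

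The antigen processing group has 7 genes, of which 3 were called higher and 0 lower, against 8.88% and 10.7% of all genes. In a group this small a count of 0 lower lies near the 10.7%. The median difference of the group was 0.38 log2 units. TAP1 read 8.07 and 8.04 with vehicle and 8.90 and 8.99 with LY101-4B, and rose 1.86-fold (0.89 ± 0.09, SE; limma adjusted p 0.0024, and 0.000164 to 0.0206 over the alternatives). Its 3 probe sets gave the same values to 2 decimals on every array, so they are not counted as separate measurements. ERAP1, the aminopeptidase that trims peptides in the endoplasmic reticulum, read 6.79 and 7.11 with vehicle and 7.51 and 7.79 with LY101-4B. It rose 1.63-fold (0.70 ± 0.15, SE; limma adjusted p 0.0268), with the widest gap of all members between vehicle arrays, and the call was lost without vehicle replicate 1 (0.13) and without LY101-4B replicate 2 (0.0833). B2M, the light chain of class I molecules, read 10.64 on both vehicle arrays and 10.98 and 11.05 with LY101-4B. Its 1.30-fold rise (0.38 ± 0.09, SE; limma adjusted p 0.0321) was the smallest of those called and was lost without any one of the 4 arrays (0.0523 to 0.205).

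The difference of TAP2, the other subunit of the transporter, lay on the other side of 0 from that of TAP1. It read 7.62 and 7.56 with vehicle and 6.96 and 7.28 with LY101-4B, so both LY101-4B arrays were lower, and the difference of -0.47 ± 0.13 was just short of the threshold (limma adjusted p 0.0559). Another of its 3 probe sets passed (-0.51 ± 0.12, limma adjusted p 0.0381) and the other did not (-0.46 ± 0.13, 0.0575). The 3 probe sets read close to each other on every array, so they too are not counted as separate measurements. The brightest TAP2 probe set passed with median centring (limma adjusted p 0.0368), cyclic loess (0.0469), an intensity trend (0.0294) and the brighter 50% (0.02). Its difference was -0.63 without LY101-4B replicate 2 and -0.31 without LY101-4B replicate 1. TAPBP, which encodes the loading chaperone tapasin, read 9.39 on both vehicle arrays and 9.67 and 9.94 with LY101-4B. Its difference of 0.42 ± 0.12 did not pass (0.0586), nor did those of its other 2 probe sets (0.0751 and 0.0784). TAPBP passed with cyclic loess (limma adjusted p 0.0249), an intensity trend (0.014) and the brighter 50% (0.0202). Its difference was 0.55 without LY101-4B replicate 1 and 0.28 without LY101-4B replicate 2. ERAP2, the partner of ERAP1, differed by -0.22 ± 0.13 and NLRC5, the transactivator of class I genes, by 0.07 ± 0.09; neither passed.

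Several of the genes lie side by side on a chromosome, and calls differed between some of the neighbours. In other runs, such as OAS1, OAS3 and OAS2 or MX2 and MX1, no gene passed. In the RefSeq gene order TAP2, PSMB8, TAP1 and PSMB9 follow each other; the immunoproteasome gene PSMB8 rose 1.41-fold (0.49 ± 0.09, SE; limma adjusted p 0.0145) between TAP2 and TAP1, and PSMB9 differed by 0.24 ± 0.09 (0.109). The ERAP1 difference exceeded that of its neighbour ERAP2 by 0.92 log2 units, and the TAP1 difference exceeded that of TAP2 by 1.36. IFIT3 rose next to IFIT2, which did not pass. RSAD2 rose next to CMPK2, an interferon-induced nucleotide kinase gene that read 6.21 and 6.11 with vehicle and 6.18 and 6.15 with LY101-4B. The helicase-related gene DDX60L showed a 2.01-fold rise (1.00 ± 0.13, SE; limma adjusted p 0.00597), beside DDX60 at a difference of 0.07. These differences between neighbours were not tested.

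**Figure D4:**
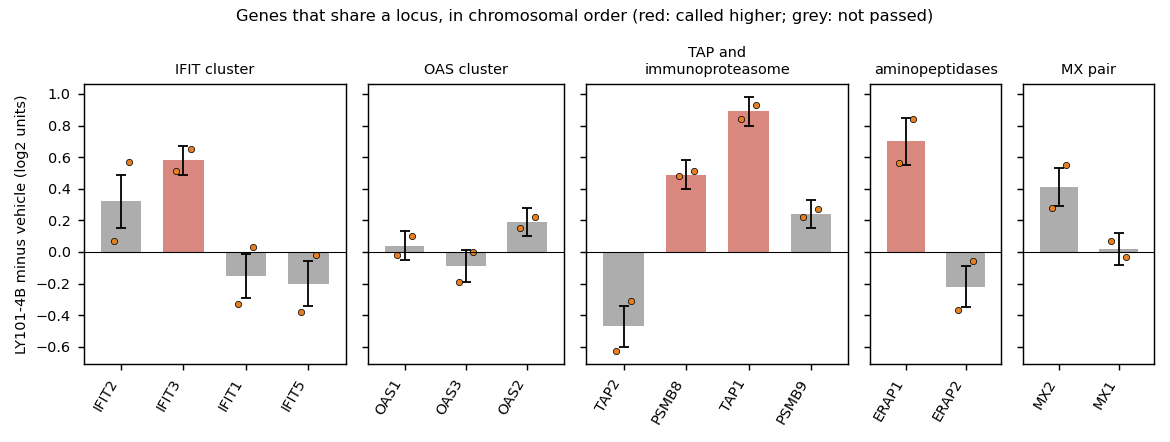
LY101-4B minus vehicle in log2 units (vertical axis) for genes that share a locus, in chromosomal order; bars are the difference, whiskers its moderated standard error, and points the 2 LY101-4B arrays against the vehicle mean. Red bars passed the test and grey bars did not. TAP1 (0.89) and PSMB8 (0.49) stand above 0 and TAP2 (-0.47) below it.

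The promoters of IFI35, IRF1 and TAP1, whose calls held throughout, are printed to show which matches to the 2 element cores they hold. Each is 300 bases of RefSeq sequence (GRCh38.p14), 250 before the transcription start and 50 from it onward, read 5′ to 3′ on the gene's strand. Capitals mark a match to the ISRE core or to the GAS core. The ISRE core is taken as GAAA, any 2 bases and GAAA on either strand. The GAS core is taken as TTCNNNGAA, which reads the same on both strands. Stretches with another spacing were not counted, so a window without a match can still hold a similar stretch.
IFI35 (chr17:43006534-43006833, plus strand): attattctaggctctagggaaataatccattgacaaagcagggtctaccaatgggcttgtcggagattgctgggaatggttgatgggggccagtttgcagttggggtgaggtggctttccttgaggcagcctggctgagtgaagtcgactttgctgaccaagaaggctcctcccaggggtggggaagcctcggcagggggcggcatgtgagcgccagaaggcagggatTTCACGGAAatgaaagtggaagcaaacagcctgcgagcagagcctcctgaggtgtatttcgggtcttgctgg
IRF1 (chr5:132490724-132491023, minus strand): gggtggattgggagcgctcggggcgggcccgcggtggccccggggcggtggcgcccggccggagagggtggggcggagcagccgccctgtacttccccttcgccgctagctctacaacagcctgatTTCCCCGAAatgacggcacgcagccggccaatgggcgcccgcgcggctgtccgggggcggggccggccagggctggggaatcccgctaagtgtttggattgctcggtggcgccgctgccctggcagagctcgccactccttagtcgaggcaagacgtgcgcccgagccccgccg
TAP1 (chr6:32853655-32853954, minus strand): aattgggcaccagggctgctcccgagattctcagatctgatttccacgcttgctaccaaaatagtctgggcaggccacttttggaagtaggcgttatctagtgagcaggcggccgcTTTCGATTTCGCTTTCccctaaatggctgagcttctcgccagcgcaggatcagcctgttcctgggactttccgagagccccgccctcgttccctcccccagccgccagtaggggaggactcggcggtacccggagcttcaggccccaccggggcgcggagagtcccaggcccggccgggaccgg
IFI35 holds a GAS match 22 bases before its start, and IRF1 a GAS match 124 bases before. The TAP1 window holds 2 overlapping ISRE matches, beginning 134 and 128 bases before the start; the window of its other start, not printed, holds a GAS match.

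Promoter sequences were matched for 30 of the 41 genes, with 40 windows between them. An ISRE match was present for 23 of the 30 (76.7%), and for 4.38% of all 27305 genes with such windows. A GAS match was present for 10 (33.3%), and for 9.38% of all genes. Among the 9 matched genes that rose 6 held an ISRE match (66.7%), and among the 20 that did not pass 17 held one (85%). Matches were thus present both among genes that rose and among genes that did not pass, and a match is a stretch of letters, not a measured binding site.

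The ISRE matches closest to the start are shown for 5 of the genes that rose, with 10 bases on each side and the match in capitals.
IFIT3 (chr10:89332468-89332497, plus strand): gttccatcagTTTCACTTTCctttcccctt
RSAD2 (chr2:6877622-6877651, plus strand): ctgtttcaacTTTCAGTTTCacatgtggaa
ISG20 (chr15:88638937-88638966, plus strand): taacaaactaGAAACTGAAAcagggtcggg
B2M (chr15:44711369-44711398, plus strand): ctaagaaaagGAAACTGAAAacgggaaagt
ERAP1 (chr5:96807924-96807953, minus strand): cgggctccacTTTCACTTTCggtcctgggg
For comparison, these are matches of 9 genes that did not pass, drawn from the same families and pathway.
IFIT1 (chr10:89392510-89392539, plus strand): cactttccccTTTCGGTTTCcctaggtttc
IFIT5 (chr10:89414554-89414583, plus strand): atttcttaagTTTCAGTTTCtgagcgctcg
IFI44 (chr1:78649761-78649790, plus strand): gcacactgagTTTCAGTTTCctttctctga
OAS3 (chr12:112938452-112938481, plus strand): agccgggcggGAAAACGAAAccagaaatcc
BST2 (chr19:17405735-17405764, minus strand): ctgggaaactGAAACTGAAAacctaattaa
DDX60 (chr4:168318786-168318815, minus strand): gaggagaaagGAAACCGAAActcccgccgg
ISG15 (chr1:1013380-1013409, plus strand): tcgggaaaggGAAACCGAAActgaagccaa
TAP2 (chr6:32838778-32838807, minus strand): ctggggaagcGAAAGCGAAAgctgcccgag
TAPBP (chr6:33314073-33314102, minus strand): ggaggaaagtGAAAGTGAAAggaggaagag
Some of the matches stand on the strand that reads TTTC, any 2 bases and TTTC, in both sets, such as IFIT3 and RSAD2 in the first and IFIT1 and IFIT5 in the second. The ISRE match of RSAD2 lies 145 bases before the second of its 2 RefSeq starts, and that of ERAP1 begins 2 bases after the start. IFI16, which rose, STAT3, the single member that fell, and RIGI, which did not pass, have neither match, as defined above, in these windows.

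Other genes of the pathway were taken from 6 lists with 117 entries, of which 102 were measured; the rest, the classical HLA genes among them, are not analysed here. Of the 102, 16 were higher (15.7%) and 6 lower (5.88%), with a median difference of 0.04 log2 units, against 8.88% and 10.7% of all genes. The 5 interferon genes measured, IFNB1, IFNK, IFNE, IFNG and IFNL1, read between 3.02 and 6.42, and none passed. IFNB1, the first type I interferon that sensors induce, read 3.12 and 3.17 with vehicle and 3.08 and 3.21 with LY101-4B. The LY101-4B arrays lay on either side of the vehicle arrays, and the difference was 0.00 ± 0.09 log2 units.

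**Figure D5:**
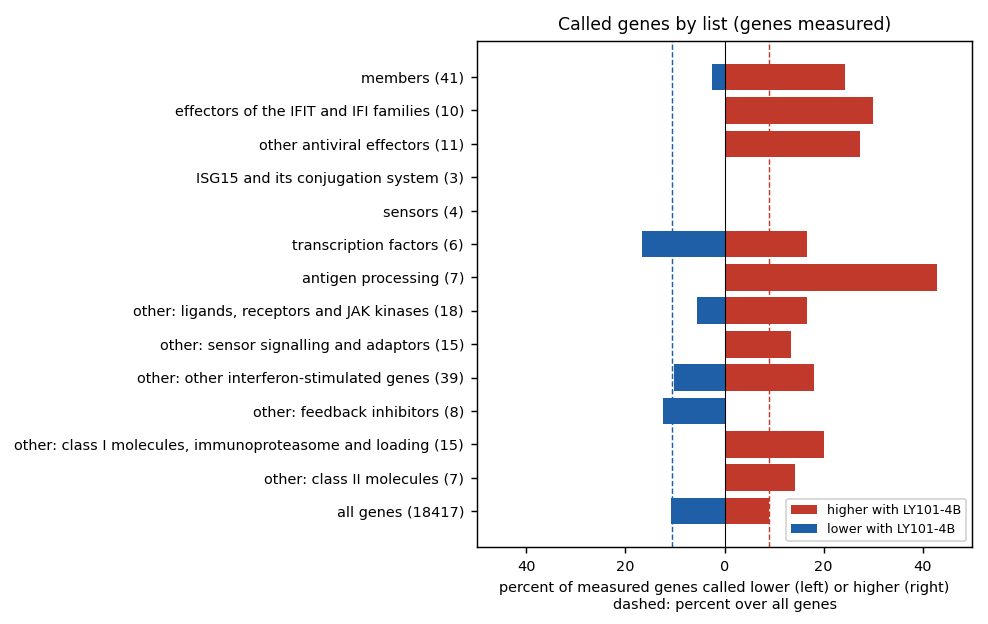
Percent of the measured genes of each list called higher (right, red) or lower (left, blue) with LY101-4B, with the number measured in parentheses; dashed lines give the percent over all genes (8.88 and 10.7). Antigen processing has the longest bar to the right, with 3 of 7 genes, and the sensor and ISG15 groups have no bar.

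Over all genes 8.88% were called higher and 10.7% lower, and with lists this short a count of a few genes can lie near those rates. Of 18 ligand, receptor and kinase genes 3 rose and 1 fell. The interferon gamma receptor chain gene IFNGR1 rose 1.35-fold (limma adjusted p 0.0225), the shared lambda and interleukin-10 receptor chain gene IL10RB 1.56-fold (0.0068) and the kinase gene JAK1 1.56-fold (0.00849). IFNAR2, a chain of the type I receptor, fell 1.33-fold (0.0385), while its partner IFNAR1 differed by 0.04 ± 0.12. JAK1 read 9.51 and 9.42 with vehicle and 10.04 and 10.17 with LY101-4B, so the groups were well apart.

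Of 15 sensor signalling genes 2 rose and 0 fell, a share of rises not far from the 8.88% of all genes. The RIG-I ubiquitin ligase gene TRIM25 read 9.19 and 9.01 with vehicle and 10.17 on both LY101-4B arrays, and rose 2.11-fold (1.08 ± 0.10, SE; limma adjusted p 0.002). DHX58, which encodes the RIG-I relative LGP2, rose 1.33-fold (0.0308). TLR3, an endosomal sensor of double-stranded RNA, read 4.66 and 4.84 with vehicle and 5.14 and 5.71 with LY101-4B and did not pass (0.68 ± 0.19; 0.0624).

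Among 39 further interferon-stimulated genes 7 rose, against 8.88% of all genes, and 4 fell, which is close to the 10.7% of all genes that fell. The poly(ADP-ribose) polymerase family genes PARP12 and PARP14 rose 1.92-fold (limma adjusted p 0.00446) and by 0.58 ± 0.14 log2 units (0.0341), the apolipoprotein L gene APOL6 1.64-fold (0.00406) and the guanylate-binding protein gene GBP2 1.53-fold (0.0223). The capsid sensor gene TRIM5 rose 1.49-fold (0.0139) and the intracellular antibody receptor gene TRIM21 1.34-fold (0.0242), and DDX60L is described above. The genes that fell were TRIM14 (1.55-fold; 0.00753), the dNTP hydrolase gene SAMHD1 (1.43-fold; 0.0216), LY6E (1.41-fold; 0.0473) and IFITM2 (1.35-fold; 0.0265). The interferon-induced chemokine genes CXCL10 and CXCL11 differed by 0.08 ± 0.10 and -0.15 ± 0.12 and did not pass.

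Feedback inhibitors gave 0 rises and 1 fall in 8, close to the 10.7% of all genes that fell. PIAS1, a SUMO ligase that restrains cytokine signalling, fell 1.53-fold (limma adjusted p 0.0329). SOCS1, the main inhibitor of JAK kinases in this pathway, read 6.23 and 6.40 with vehicle and 7.34 and 6.43 with LY101-4B and did not pass (0.57 ± 0.29). Its high array was the first LY101-4B array, the one on which IFIH1 stood at the vehicle level. IFIH1 did not pass either, and a link between the genes was not tested. In the class I list 3 of 15 rose and 0 fell, against 8.88% and 10.7% of all genes. These were PSMB8, given above, and the endoplasmic reticulum chaperone genes CALR and CANX, which fold many glycoproteins besides class I molecules. CALR rose 1.63-fold (limma adjusted p 0.00533) and CANX 1.36-fold (0.0218). Of 7 class II genes 1 rose and 0 fell, which with so few genes lies near the 8.88% and 10.7% of all genes. HLA-DMA, the peptide editor, rose 1.40-fold (limma adjusted p 0.0332), and CIITA, the class II transactivator, differed by -0.02 ± 0.11.

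Of these 22 pathway calls, those of APOL6, CALR, DDX60L, PARP12 and TRIM25 held without any single array. The other 17 were lost without at least 1: 15 without vehicle replicate 1 (limma adjusted p 0.0572 to 0.208), 17 without vehicle replicate 2 (0.0586 to 0.257), 7 without LY101-4B replicate 1 (0.0502 to 0.153) and 5 without LY101-4B replicate 2 (0.0507 to 0.0893).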

How the data were processed

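MiaPaCa2 cells given vehicle or LY101-4B were profiled on Human Gene 1.0 ST arrays, 2 per group. The authors deposited 1 table of log2 values, with a value for every probe set and array. Per the submitters' processing notes these come from RMA, which corrects background, quantile-normalises and summarises probes. The sources used here name no version and no filter. RMA makes arrays alike in distribution and compresses low signals. Per the labels' protocols, total RNA was labelled with a FlashTag Biotin HSR kit, a kind usually used for small RNA; whether this entry describes these arrays is not known.

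Of 33297 rows, 21214 probe sets had at least 1 gene symbol in the platform annotation and were tested, and the 19460 with 1 symbol could be named. All columns were mapped (0 left over). All 41 symbols match the RefSeq gene table (GRCh38.p14). Treatment was fitted across the tested probe sets on all 4 arrays (limma 3.58.1, R 4.3.3, lmFit and eBayes; 2 residual and 3.75 prior degrees of freedom), with Benjamini-Hochberg adjustment over all of them and a threshold of 0.05. Errors are moderated standard errors. The fit was tested on simulated data. Array number limits the precision; depth has no counterpart here. The p-values measure the spread between these cultures of a single line.

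Every measured member is named, and of the pathway lists every called gene; CMPK2, the interferon, chemokine and receptor genes that did not pass, TLR3, SOCS1, CIITA and PSMB9 were chosen after their values were seen. Alternatives left out each array, added the replicate number as a block, or changed the scaling, the variance prior, the probe sets tested and the probe set standing for a gene. Members and lists were chosen with earlier results of these data known. A comparison of family protein sequences that had been planned was not run. Motifs were searched in RefSeq promoter windows with Python 3.11.15.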

Additional observations from a re-analysis of the deposited data

How the results depend on the processing

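As reported, 1930 of 21214 probe sets were higher and 2236 lower; 10 members were higher and 1 lower, and of the other pathway genes 16 were higher and 6 lower. Leaving out 1 array at a time gave 755 to 1899 probe sets higher and 811 to 2467 lower, 4 to 12 members higher and 0 to 2 lower, 5 to 17 pathway genes higher and 0 to 5 lower, and a member median of 0.07 to 0.13; these fits have fewer samples. Testing all 33297 rows gave 1162 and 1271 probe sets, 5 and 0 members, and 7 and 1 pathway genes. TAP2 brought the members called lower to 2 with median centring, cyclic loess, an intensity trend and the brighter 50% of probe sets. Median centring put the member median at 0.02 and the median over all genes at -0.06. It called 1528 probe sets higher and 2731 lower, so that 35.9% of calls were higher, against 46.3% as reported. It also ended the call of B2M (adjusted p 0.0683). With all rows tested, the calls of B2M, ERAP1, IFI16, ISG20, RSAD2 and STAT3 were lost (0.0535 to 0.0857). The sign of CGAS, IFI27, IFIT1, MX1, OAS1 and RIGI, none called, turned under at least 1 alternative.

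The titles number the samples 1 and 2 in both groups. Deviations of same-numbered arrays correlated at 0.116 across the tested probe sets, and with 2 pairs this does not show that the numbers pair the samples. With the replicate block 2024 probe sets were higher and 2312 lower, 10 members were higher and 1 lower, and the block changed no member's call. The robust prior and the single-symbol rows also gave 10 and 1. No value of signal over background was available, so the dimmest values, such as those of IFNB1 and PTPRC, limit what can be said of their genes.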
